A study of Mus musculus with 2 samples.

Results

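The TGF-beta and bone morphogenetic protein (BMP) signalling genes described here are 45 named ligands, receptors, secreted antagonists, Smad proteins and target genes. They were chosen by symbol, and a gene counted as measured where a probe set on the array named it and no other gene. This held for 44 of the 45, each with 1 probe set, out of 22180 measured genes. The exception was Gdf15, a stress-induced member of the family, which has no value here. The RNA came from the colon of male ICR mice, an outbred stock, aged 7 weeks and labelled healthy. The psyllium group ate a diet holding 10% psyllium, a gel-forming seed-husk fibre, for 5 days, and the control group a diet with 0% psyllium over the same 5 days. Each diet has 1 array, so every value below is a difference between 2 arrays with no error, standard deviation or p-value. How many mice gave RNA to an array, which stretch of colon was taken and whether its muscle coat was kept are not given in the labels.

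Ligands of the TGF-beta family bind pairs of type I and type II receptor kinases, which phosphorylate receptor Smads. These join Smad4 in the nucleus and act on target genes, among them the Id genes and the inhibitory Smads, Smad6 and Smad7, that damp the same signal. In the colon BMP signalling is known to be strongest toward the luminal surface, where epithelial cells mature, and to be held down around the crypt base by antagonists such as gremlin 1 from fibroblasts and muscle cells. TGF-beta itself is known in the gut for its action on matrix-producing cells and on immune tolerance.

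Values are normalised intensities as deposited, on a linear scale, and differences are log2 psyllium minus log2 control. A gene was called higher or lower when it differed by at least 1.5-fold, which is 0.58 on the log2 scale. Of the 44 measured members 5 were called higher (11.4%) and 1 was called lower (2.27%). Over all 22180 genes 3.42% were called higher and 2.80% lower, and over the 11090 genes whose brighter array reached an intensity of 69.5 these shares were 4.03% and 2.42%. The members were chosen with earlier results of these data known, so this comparison is a description and not a test. The median difference was 0.12 over the 44 members and -0.0025 over all genes. Of the 44 members 35 reached that intensity on their brighter array. The 9 that did not were Inhba, Inhbb, Bmp6, Gdf10, Bmpr1b, Acvr2b, Nog, Chrd and Smad9, and their differences rest on dim values.

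The 5 genes called higher were Fstl1, Grem1, Bmp1, Id4 and Fst, and the gene called lower was Id1. They come from the antagonists, the Bmp1 protease and the Id targets, whereas no growth factor, receptor or Smad reached 1.5-fold in either direction. At 2-fold Fstl1 alone was called, and over all genes the shares past 2-fold were 0.676% upward and 0.451% downward. Just inside the 1.5-fold limit lay Fst, at 1.52-fold, and just outside it lay Bmp4, at 1.43-fold.

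**Figure D1:**
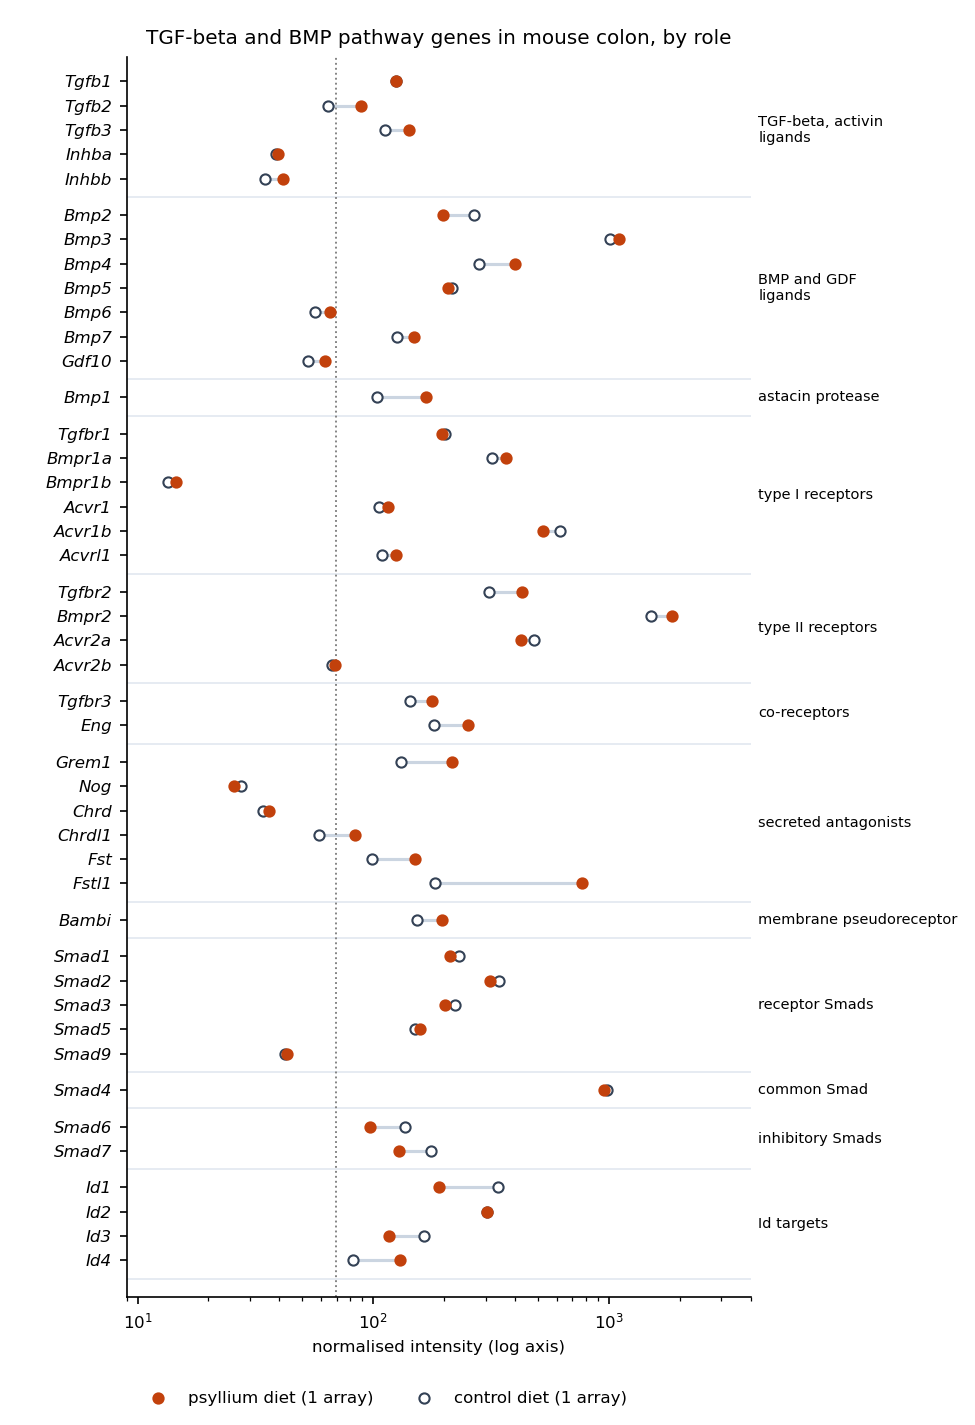
Normalised intensity (log axis) of the 44 measured members on the psyllium array (filled) and the control array (open), grouped by role. The dotted line marks the intensity of 69.5. Fstl1 has the widest gap, with 769 on the psyllium array and 183 on the control array, and Smad6, Smad7, Id1 and Id3 are all lower on the psyllium array.

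Marker RNA of several cell types differed between the arrays, and these values stand beside all results that follow. Over all genes 3.42% were called higher and 2.80% lower. Of 10 smooth muscle markers 9 were called higher, with a median difference of 1.10 and a summed intensity of 27469 on the psyllium array and 11560 on the control array. Of 9 measured fibroblast markers 5 were called higher, with a median of 0.94 and sums of 5756 on the psyllium array and 2533 on the control array. The 5 were Col1a1, Col1a2, Col3a1, Lum and Col6a1, all genes of matrix proteins. Pdgfra, Pdgfrb, Thy1 and Fbln1 were not called and differed by 0.32, -0.19, 0.50 and 0.23. All 10 pan-epithelial markers had negative differences, none as large as 1.5-fold, with a median of -0.28. Of all genes reaching an intensity of 69.5, 56.6% had negative and 42.7% positive differences. The brightest pan-epithelial markers, Krt8 and Epcam, differed by only -0.03 and -0.07. The pan-epithelial sums were 14419 on the psyllium array and 16631 on the control array. Goblet cell markers, of another epithelial type, went the other way, with all 7 positive, a median of 0.24 and 1 called higher, Agr2, at 6202 on the psyllium array and 4122 on the control array. Surface colonocyte markers, 7 measured, had a median of -0.44 and 3 called lower. Endothelial markers had a median of 0.03 with none of 10 called. The colon markers Car1 (7791 on the psyllium array and 10100 on the control array) and Muc2 were bright on both arrays, and the 4 measured pancreatic acinar markers stayed below an intensity of 69.5. Of these pancreatic markers Prss2 was called higher, from 13.5 on the psyllium array and 6.68 on the control array. Of 5 skeletal muscle markers 2 were called higher, with a median of 0.31. The call of Myh4 rests on dim values, 23.5 on the psyllium array and 14.5 on the control array. The brightest skeletal muscle marker, Ckm, had 223 on the psyllium array and 128 on the control array, 1.75-fold higher. None of 5 adipocyte markers was called, with a median of 0.13. In a whole-tissue sample more cells of a type and more RNA per cell cannot be told apart, and the part of cell makeup in the differences below was not tested.

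Secreted antagonists had the highest median difference of any role with several members, 0.55 over 6 genes. Of the 6, 3 were called higher and none lower, beside 3.42% and 2.80% of all genes. Fstl1, a secreted follistatin-like glycoprotein of fibroblasts that in mouse lung development has been described as an antagonist of BMP4, had an intensity of 769 on the psyllium array and 183 on the control array. It was 4.19-fold higher and held rank 17 among all 22180 genes ordered from the highest difference. Grem1, gremlin 1, which binds BMP2 and BMP4 and keeps them from their receptors, had 215 on the psyllium array and 131 on the control array, a difference of 0.71 (1.64-fold higher). Of all genes 1.90% had a higher difference than Grem1. Fst, follistatin, which traps activins, had 150.2 on the psyllium array and 98.7 on the control array, a difference of 0.60. With a pseudocount of 16 added to both intensities its difference was 0.53 and the call was lost.

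The other antagonists stayed within 1.5-fold. Chrdl1, chordin-like 1, had 83.7 on the psyllium array and 59.0 on the control array, a difference of 0.50. Nog, noggin, had 25.8 on the psyllium array and 27.5 on the control array. Chrd, chordin, had 36.1 on the psyllium array and 34.1 on the control array. These last 2 classical BMP antagonists were dim on both arrays and close to equal between them, so the higher values lay in gremlin 1, follistatin, Fstl1 and, short of the limit, chordin-like 1. Bambi, a membrane protein shaped like a type I receptor but without a kinase, had 196 on the psyllium array and 154 on the control array, a difference of 0.35.

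Markers of fibroblasts at the crypt base, which are known to make Grem1, were compared with those of the PDGFRA-high fibroblasts under the surface, which are known to make Bmp5 and Bmp7. Of 6 crypt-base fibroblast markers 3 were called higher, beside 3.42% of all genes. Among the 3, Pi16 was dim, with 60.5 on the psyllium array and 32.1 on the control array. The median of the 6 was 0.57, with sums of 3415 on the psyllium array and 2427 on the control array. Most of these sums came from Cd81, which was not called, with 2671 on the psyllium array and 1846 on the control array. Of 6 crypt-top fibroblast markers none was called, with a median of -0.14 and sums of 1238 on the psyllium array and 1139 on the control array. Pdgfra belongs both to this list and to the fibroblast list. Smooth muscle markers, of another known source of gremlin 1, had a median of 1.10 with 9 of 10 called higher. The part of fibroblasts and of smooth muscle cells in the Grem1 difference was not tested.

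Bmp1 carries the family's name but is an astacin metalloprotease, which removes the C-terminal propeptide of fibrillar procollagens and cleaves chordin. It had 168 on the psyllium array and 104 on the control array, 1.62-fold higher. Of all genes 2.11% had a higher difference.

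None of the 12 measured ligands was called, and 9 of them had positive differences, as did 47.2% of all genes. Their median was 0.22. Tgfb1, the main TGF-beta isoform of immune cells, had 124 on the psyllium array and 125 on the control array. Tgfb2 had 88.7 on the psyllium array and 64.2 on the control array, a difference of 0.47, and Tgfb3 had 142 on the psyllium array and 112 on the control array, a difference of 0.34. The 3 isoforms therefore did not differ alike, with Tgfb1 nearly equal on both arrays and Tgfb2 and Tgfb3 higher by less than 1.5-fold. Inhba and Inhbb, which encode the activin beta A and beta B subunits, differed by 0.03 and 0.26 at dim levels.

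Among the BMP ligands Bmp4 and Bmp2 lay farthest apart. Bmp4, made by mesenchymal cells beneath the gut epithelium, had 401 on the psyllium array and 281 on the control array, a difference of 0.51. Bmp2, made in the gut by mature epithelial cells and by macrophages of the muscle coat, had 198 on the psyllium array and 269 on the control array, a difference of -0.44. Thus 4.74% of all genes had a higher difference than Bmp4 and 5.88% a lower one than Bmp2, and neither passed 1.5-fold. Beside them stood the fibroblast median of 0.94 and the surface colonocyte median of -0.44. The PDGFRA-high crypt-top fibroblast markers had a median of -0.14, with none of 6 called. Macrophage markers had a median of 0.39 with 2 of 8 called higher, against 3.42% of all genes. The part of any of these cells in the Bmp4 and Bmp2 differences was not tested.

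The remaining BMP ligands differed little. Bmp3, an atypical member that opposes other BMPs, had 1102 on the psyllium array and 1013 on the control array. Bmp5 had 207 on the psyllium array and 215 on the control array, and Bmp7 had 148 on the psyllium array and 126 on the control array. The differences of these 3 were 0.12, -0.05 and 0.23. Bmp6, known as the liver's iron-sensing BMP, and Gdf10, a close relative of Bmp3, differed by 0.21 and 0.24 at dim levels.

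Receptors showed no call among 12 genes, with a median of 0.16 and 9 positive differences, where 47.2% of all genes were positive. The largest differences were those of the TGF-beta type II receptor and of a co-receptor. Tgfbr2, the type II receptor that binds TGF-beta itself, had 429 on the psyllium array and 309.8 on the control array, a difference of 0.47. Eng, endoglin, a co-receptor abundant on endothelium, had 253 on the psyllium array and 181 on the control array, a difference of 0.48. Tgfbr3, betaglycan, the other co-receptor, had 177 on the psyllium array and 144 on the control array, a difference of 0.30. Acvrl1, the type I receptor found mainly on endothelium and the usual partner of endoglin, differed by 0.19, and the endothelial markers had a median of 0.03.

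The type II receptor Bmpr2 had 1853 on the psyllium array and 1505 on the control array, a difference of 0.30. Acvr2a and Acvr2b, type II receptors for activins and BMPs, differed by -0.18 and 0.04, the second from values just below the intensity of 69.5. The type I receptors were within 0.25 of zero on the log2 scale, ranging from -0.24 for Acvr1b to 0.19 for Acvrl1. Acvr1b, the activin type I receptor, had 526 on the psyllium array and 622 on the control array. Bmpr1a, the main BMP type I receptor of the gut epithelium and a gene of inherited juvenile polyposis in people, had 365 on the psyllium array and 320.5 on the control array, a difference of 0.19. Tgfbr1 differed by -0.05 and Acvr1 by 0.12, while Bmpr1b was dim on both arrays at 14.6 on the psyllium array and 13.5 on the control array.

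The receptor Smads and Smad4 were nearly equal on the arrays. Smad1, Smad5 and Smad9, which carry BMP signals, differed by -0.13, 0.08 and 0.03. Smad2 and Smad3, which carry TGF-beta and activin signals, differed by -0.12 and -0.14. Smad4, the shared partner, had 956 on the psyllium array and 985 on the control array, a difference of -0.04. The 5 receptor Smads thus had a median of -0.12, within 0.14 of zero for each gene.

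Both inhibitory Smads were lower on the psyllium array, short of 1.5-fold. Smad6, which mainly restrains BMP signals and is itself induced by them, had 96.8 on the psyllium array and 137 on the control array, a difference of -0.50. Smad7, which restrains TGF-beta and BMP signals, had 128 on the psyllium array and 176 on the control array, a difference of -0.46. Of all genes 4.36% had a lower difference than Smad6 and 5.39% a lower one than Smad7.

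The 4 Id genes, which encode inhibitors of basic helix-loop-helix transcription factors and are common readouts of BMP signalling, went different ways. Id1 had 190.2 on the psyllium array and 338 on the control array and was 1.78-fold lower, the only member called lower. It held rank 200 of 22180 counted from the lowest difference, so 0.897% of genes lay below it. Id3 had 117 on the psyllium array and 164 on the control array, a difference of -0.48, with 4.66% of genes below it. Id2 was equal within 1 unit of intensity, with 303.6 on the psyllium array and 302.7 on the control array. Id4 had 131 on the psyllium array and 81.8 on the control array and was 1.60-fold higher. With a pseudocount of 16 its difference was 0.584, just under the limit of 0.585, and the call was lost. The lower genes of this class, Id1 and Id3, had the direction of the inhibitory Smads. Id4, expressed in neural and mesenchymal cells in mice, had that of the antagonists called higher. None of the 10 measured enteric neuron, glia and pacemaker markers was called, with a median of -0.09. The part of these cells in the Id4 difference was not tested.

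**Figure D2:**
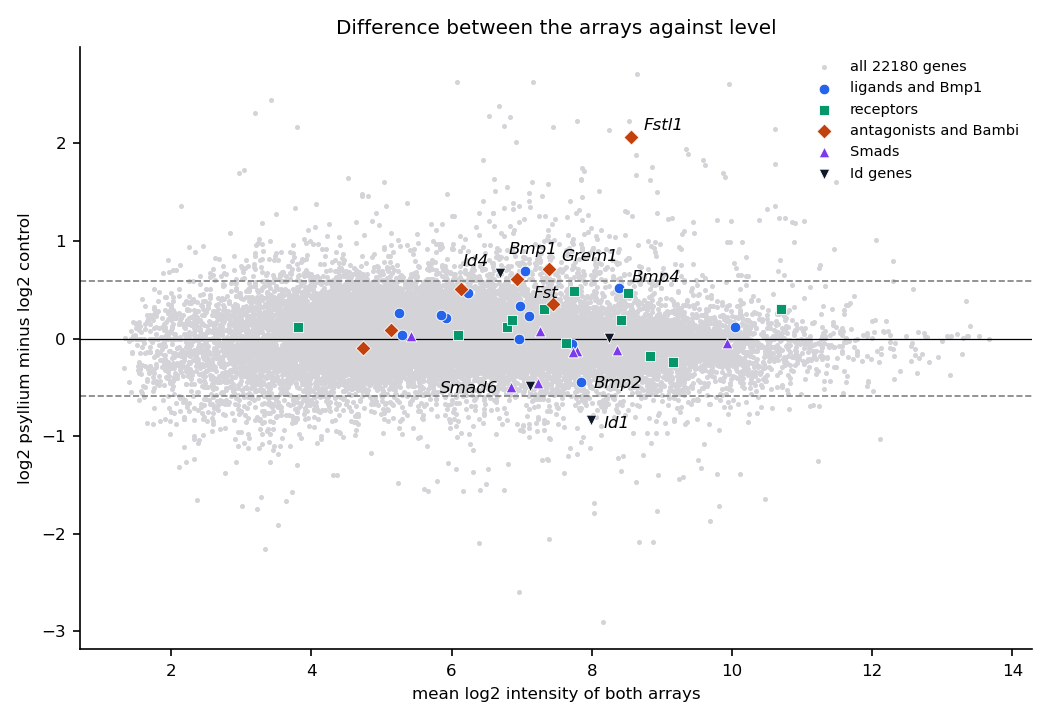
Log2 psyllium minus log2 control against the mean log2 intensity of both arrays, for all 22180 genes (grey) and for the members by role, with the 1.5-fold limits dashed. Fstl1 stands apart at 2.07, Grem1, Bmp1, Id4 and Fst lie just above the upper limit, and Id1 lies below the lower one at -0.83.

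Promoter sequences of the members are shown because the inhibitory Smads and Id genes include known direct targets of Smad complexes. Apart from Id2 and Id4, these genes also differed in direction from the antagonists called higher. The windows run from 250 bases before to 50 bases after the annotated start, are credited to RefSeq, build GRCm38.p6, and were held for 30 of the 45 members. Id1 and Smad7 are among the members without a window and were not searched. Both strands were searched for a palindromic Smad-binding element, GTCTAGAC, for the GC-rich element GGCGCC and for the core of the CAGA box, CAGACA. GTCTAGAC and GGCGCC read the same on both strands, and no 2 of the 3 motifs are contained in each other. Smad6 and Id3, both lower on the psyllium array, are given first, followed by Id4, Grem1 and Fstl1, all called higher there. Capitals mark a motif match, and a sequence without capitals holds none of the 3. The positions are chr9:64022010-64022309 on the minus strand for Smad6, chr4:136143572-136143871 on the plus strand for Id3, chr13:48260866-48261165 on the plus strand for Id4, chr2:113758599-113758898 on the minus strand for Grem1 and chr16:37776805-37777104 on the plus strand for Fstl1.
Smad6: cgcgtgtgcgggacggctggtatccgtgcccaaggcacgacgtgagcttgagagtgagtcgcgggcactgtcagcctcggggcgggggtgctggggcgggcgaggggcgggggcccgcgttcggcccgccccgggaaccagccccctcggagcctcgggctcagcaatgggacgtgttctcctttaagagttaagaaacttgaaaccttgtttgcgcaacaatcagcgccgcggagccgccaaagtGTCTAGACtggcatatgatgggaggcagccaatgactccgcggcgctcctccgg
Id3: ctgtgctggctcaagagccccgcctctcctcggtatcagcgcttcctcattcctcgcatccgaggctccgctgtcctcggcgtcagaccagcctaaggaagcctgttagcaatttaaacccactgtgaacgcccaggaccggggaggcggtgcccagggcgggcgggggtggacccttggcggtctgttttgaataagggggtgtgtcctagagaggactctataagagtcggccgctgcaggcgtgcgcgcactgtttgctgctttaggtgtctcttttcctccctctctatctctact
Id4: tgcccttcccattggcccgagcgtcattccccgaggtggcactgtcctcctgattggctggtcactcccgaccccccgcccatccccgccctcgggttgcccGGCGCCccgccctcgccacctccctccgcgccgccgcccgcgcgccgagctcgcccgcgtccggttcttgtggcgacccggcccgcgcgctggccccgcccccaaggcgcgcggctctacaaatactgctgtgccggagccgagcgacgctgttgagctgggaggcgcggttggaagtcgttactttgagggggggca
Grem1: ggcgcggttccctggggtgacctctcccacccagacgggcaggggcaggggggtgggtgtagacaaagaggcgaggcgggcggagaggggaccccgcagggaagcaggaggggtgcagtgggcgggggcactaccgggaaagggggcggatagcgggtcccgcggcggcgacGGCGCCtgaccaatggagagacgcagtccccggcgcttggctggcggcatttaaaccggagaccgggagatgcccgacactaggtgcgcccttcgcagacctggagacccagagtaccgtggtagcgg
Fstl1: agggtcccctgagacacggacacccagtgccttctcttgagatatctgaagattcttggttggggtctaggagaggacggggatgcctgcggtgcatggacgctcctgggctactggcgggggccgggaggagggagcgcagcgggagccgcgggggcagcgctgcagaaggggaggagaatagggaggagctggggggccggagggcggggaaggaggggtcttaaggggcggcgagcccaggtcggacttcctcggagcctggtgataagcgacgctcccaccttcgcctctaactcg

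The Smad6 window holds the palindromic element, which 0.213% of all 32851 promoter windows hold and which none of the other members with a window has. The GC-rich element is present in 11 of the 30 members, Id4 and Grem1 among them, and in 11.9% of all windows. The CAGA core is present in 5 of the 30, namely Bmp5, Bmpr1b, Chrd, Tgfb2 and Tgfbr1, and in 21.0% of all windows. A member was counted if any of its windows matched, and 4 members have several, whereas the shares of all windows count each window. The counts of members and these shares are therefore not in the same unit. The 5 windows printed are 60.0% to 73.3% G and C, where the median of all windows is 52.7%, so a GC-rich motif is more easily met in them. The G and C content of the other members' windows was not compared with that median. These matches describe letters in a short window and not binding.

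Other genes of the pathway, 64 in a list outside the members, were followed in the same way. Of the 59 measured 6 were called higher and 1 lower, with a median difference of 0.05, against 3.42% and 2.80% of all genes. The list was chosen with earlier results of these data known, so this comparison is a description and not a test. The calls were Ltbp1, Thbs1 and Itgb6 among genes of latency and activation, Bgn, Dcn and Fstl3 among other antagonists and modulators, and Ccn2 among transcriptional targets. Ltbp1, which tethers latent TGF-beta to the matrix, had 192 on the psyllium array and 114 on the control array, 1.68-fold higher. Thbs1, thrombospondin 1, an activator of latent TGF-beta, had 481 on the psyllium array and 317 on the control array, a difference of 0.60, or 0.575, under the limit of 0.585, with a pseudocount of 16. Itgb6, the epithelial integrin subunit that also activates latent TGF-beta, was the gene called lower, with 70.6 on the psyllium array and 112 on the control array, a difference of -0.67, or -0.57 and no longer called with a pseudocount of 16. Of the 13 genes of latency and activation these 3 were called, and the list's median was 0.10.

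Small proteoglycans and follistatin-like 3 made up the calls among other antagonists and modulators, 3 of 10 measured. Over all genes 3.42% were called higher. Bgn, biglycan, had 2802 on the psyllium array and 1222 on the control array, 2.29-fold higher, and its second probe set differed by 0.91. Dcn, decorin, which like biglycan binds TGF-beta in the matrix, had 2881 on the psyllium array and 1267 on the control array, 2.27-fold higher. Fstl3, an activin-binding relative of follistatin, had 191 on the psyllium array and 112 on the control array, 1.70-fold higher. Decorin and biglycan are also abundant products of fibroblasts, whose markers had a median of 0.94 on the same arrays. The fibroblast markers called higher were all genes of matrix proteins, while Pdgfra differed by 0.32 and Pdgfrb by -0.19.

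Inside the cell no regulator was called. The 12 intracellular regulators had a median of 0.01, with the ubiquitin ligases Nedd4l and Smurf2 at -0.09 and 0.01. Their differences ranged from -0.36 for Skil to 0.57 for Pmepa1. Pmepa1 had 205 on the psyllium array and 139 on the control array, 1.48-fold higher and just short of the limit. Among 5 measured receptors and co-receptors outside the members, the repulsive guidance receptor Neo1 differed by -0.07 and the BMP co-receptor Rgmb by 0.55, which is 1.46-fold. Acvr1c differed by slightly more in the other direction, at -0.56, with 80.1 on the psyllium array and 118 on the control array (1.48-fold lower). None of the 11 other ligands was called, with Bmp8a at -0.08 and Gdf11 at 0.09, and 10 of them did not reach the intensity of 69.5.

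Of 8 measured transcriptional targets outside the members 1 was called higher, beside 3.42% of all genes, and none lower. Ccn2, connective tissue growth factor, a matrix-associated target of TGF-beta, had 225 on the psyllium array and 84.4 on the control array, 2.66-fold higher. Its second probe set was dim, with 30.6 on the psyllium array and 33.0 on the control array, a difference of -0.11. Tgfbi, the TGF-beta-induced matrix protein, differed by 0.31, Klf10 by -0.25 and the BMP target Atoh8 by -0.12. Tsc22d1 differed by 0.18, and Msx2 by 0.46 at a dim level. Snai2 and Snai1, the second dim, were nearly equal on the arrays, at 0.01 and -0.03. The targets thus did not share a direction, with 5 positive and 3 negative, counting the nearly equal Snai2 and Snai1.

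**Figure D3:**
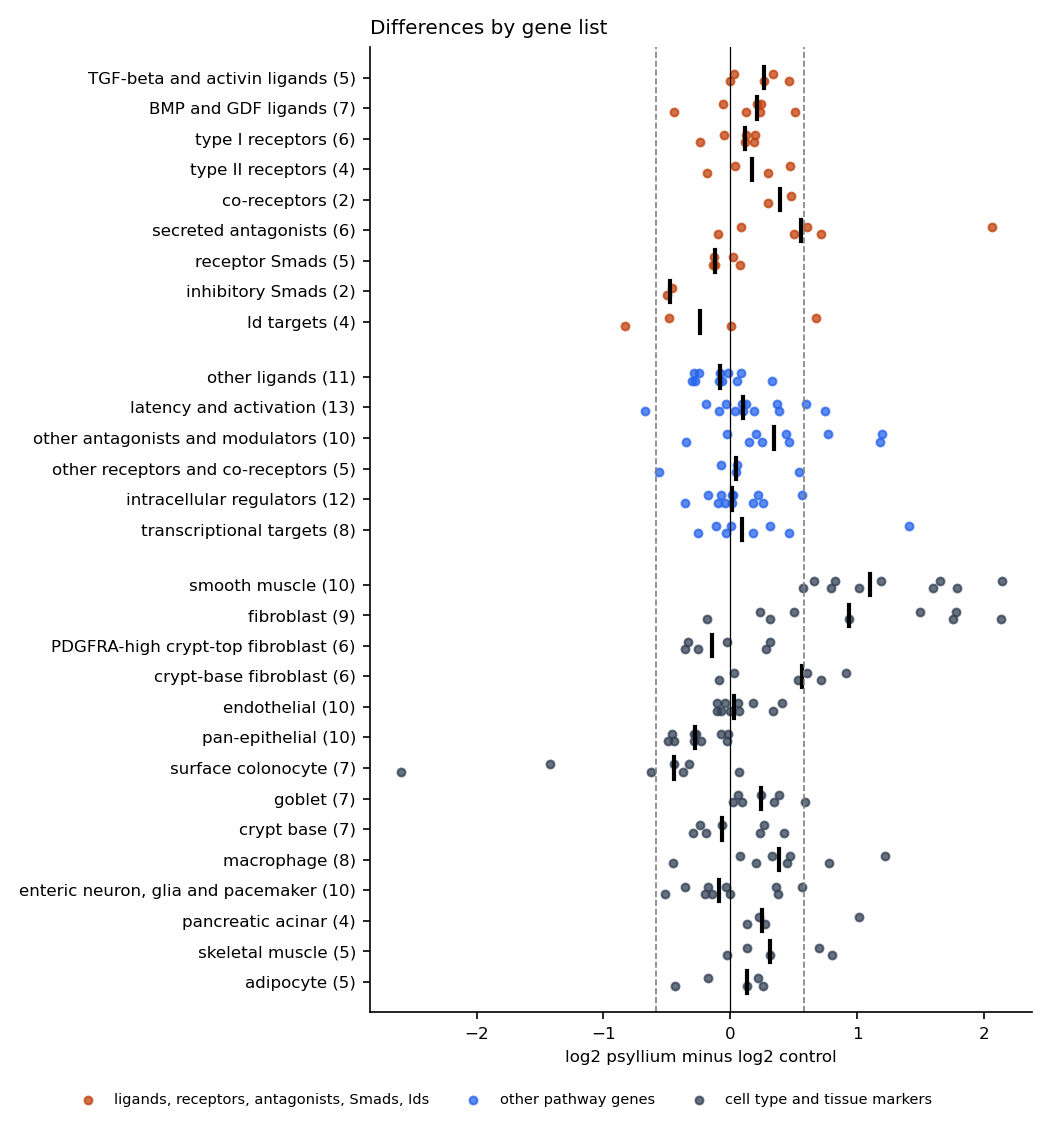
Log2 psyllium minus log2 control for each measured gene (points) of each list, with the number of genes in brackets, the list's median as a bar and the 1.5-fold limits dashed. Roles with a single member are left out. The median is 0.55 for secreted antagonists and -0.48 for inhibitory Smads, beside 1.10 for smooth muscle, 0.94 for fibroblast and -0.28 for pan-epithelial markers.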

How the data were processed

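Biotin-labelled total RNA was hybridised to 1 whole-transcript array per diet, per the labels' protocols. The deposited table gives a linear intensity for each of 41345 probe sets. The submitters' processing notes name RMA and Affymetrix Expression Console and give no version. Whether the values are the antilogarithm of RMA output, and the annotation used, are not given in the sources used here. RMA as usually run equalises the arrays, which makes a difference relative to most other transcripts. Median intensities were 49.8 on the psyllium array and 48.9 on the control array.

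Gene names came from the platform annotation in GEO, and symbols were updated by gene number from a RefSeq table (GRCm38.p6). Of the probe sets 23521 named 1 gene, 23328 of them found in that table, 1814 named several and 16010 none here. Probe sets naming several or none were not used. A gene with several probe sets took the one with the highest mean. Intensities were converted to log2 without a pseudocount (Python 3.11.15, pandas 2.3.3, NumPy 2.4.6). The calculation was checked by putting known folds into the table, which does not bear on the spread between animals. The lowess trend used statsmodels 0.14.6 (span 0.3).

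The members and lists were chosen with earlier results of these data known. Every member is named. Of each other pathway list up to 4 called genes above the intensity of 69.5, or else up to 2 with the highest level, are named, and of marker lists a few of the brightest. Beyond this rule Tgfbi, Klf10, Atoh8, Tsc22d1, Msx2, Snai1, Snai2, Acvr1c, Pmepa1 and Skil were named after their values were seen. Alternatives were the mean or the dimmest probe set, quantile normalisation, centring, removal of the intensity trend, a pseudocount of 16, the filter at 69.5 and a 2-fold call. With 1 array per diet, the number of arrays limits the precision.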

Additional observations from a re-analysis of the deposited data

Results flagged for a closer look

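A further probe set, left out of the comparison because it names both Bmpr2 and the predicted gene Gm20272, was higher on the psyllium array, at an intensity of 267, than on the control array, at 246. The difference was 0.12 on the log2 scale, in the direction of the Bmpr2 probe set used, at 0.30. The gap between these 2 differences, like the typical gap of 0.17 between probe sets of the same gene over 332 genes, is between probes on the same RNA and not between animals.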

How the results depend on the processing

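Differences of the 44 members moved by at most 0.094 on the log2 scale under any of the 6 alternatives in probe set, scaling, trend and pseudocount. With a pseudocount of 16 the members called higher numbered 3, as Fst and Id4 fell short of 1.5-fold, and the other pathway genes called higher and lower numbered 5 and 0, as Thbs1 and Itgb6 fell short. The other 5 alternatives kept all 6 calls of members and added none. For members the 2 probe-set alternatives repeat the values reported, since each has 1 probe set. At 2-fold the members called higher and lower numbered 1 and 0, and the other pathway genes 3 and 0. The other pathway genes called higher, 6 as reported, numbered 5 with the dimmest probe set, where Ccn2 differed by -0.11, 7 after quantile normalisation and 8 without the intensity trend. Removing the intensity trend turned the sign of 6 small differences, those of Tgfb1, Inhba, Bmp5, Tgfbr1, Smad9 and Smad4, and quantile normalisation that of Tgfb1, so these have no settled direction. No role's median moved by the typical gap of 0.17 between probe sets of the same gene. No paired analysis was possible because each diet has 1 array.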

Other observations

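The genes with which the Bmp1 protease works were read as well, in a list put together after results of these arrays had been seen. Fibrillar collagen chains, whose propeptides Bmp1 removes, were higher on the psyllium array. Col1a1 was 3.39-fold higher (853 on the psyllium array and 252 on the control array), Col3a1 3.44-fold and Col1a2 2.83-fold. Lox, lysyl oxidase, a collagen cross-linker that Bmp1 activates, had 164 on the psyllium array and 46.1 on the control array, and its relative Loxl1 had 189 on the psyllium array and 64.4 on the control array, with both control values below the intensity of 69.5. Pcolce, an enhancer of the protease, was 1.79-fold higher and Pcolce2 1.41-fold. In all 6 of 7 genes were called higher, beside 5 of 9 fibroblast markers and 3.42% of all genes, and Col1a1, Col1a2 and Col3a1 belong to both lists.

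A second such list held 8 matrix and membrane proteins that bind TGF-beta or its latent complexes, and 3 of them were called higher and none lower, beside 3.42% and 2.80% of all genes. Aspn, asporin, had 1274 on the psyllium array and 331 on the control array, 3.85-fold higher. Emilin1, which restrains TGF-beta processing, was 1.74-fold higher, and Cd109, a TGF-beta co-receptor, 1.63-fold higher. Fmod, fibromodulin, differed by -0.30 at a dim level, and Vasn, Htra1, Mfap2 and Fbn2 differed by 0.03, 0.31, 0.07 and 0.34.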
